A study of Mus musculus with 48 samples.

Results

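Cpd2 and Cpd6, named Cmpd2 and Cmpd6 in the sample labels, were compared directly in skin from Study 2, with 4 arrays of Cpd2-treated mice set against 4 arrays of Cpd6-treated mice. These are 8 of the 48 arrays of the series, and they were chosen by sample title, so that no measured value entered the choice. Both compounds inhibit DGAT1 and both were classed by the study as skin-positive, meaning that sebaceous glands became atrophic on histology. They belong to different structural classes, the study's groups B and D. The mice were male diet-induced obese C57BL/6 animals on a high-fat diet, labelled as 8 weeks of age, and were dosed orally with Cpd2, Cpd6 or methylcellulose vehicle for 14 days. The dose of each compound was taken as 30 mg/kg, the general dose of the methods, because the labels give none. Equal dose is not equal exposure. No genetic alteration was used in any group. Total RNA of skin biopsies was hybridised to a custom Affymetrix array, 1 array per mouse, and all values below are log2 of the deposited intensities unless a difference or fold is named. The question was how alike the skin transcriptomes of mice given either compound were, and where they leaned apart. It is 1 pair of compounds at 1 dose and 1 time.

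DGAT1 joins a fatty acyl group to diacylglycerol and so makes triglyceride, while DGAT2 is a second, unrelated enzyme for the same step. Sebaceous glands are small lipid-producing glands attached to the hair follicle. Their cells fill with wax esters, cholesterol esters and triglycerides, and then burst to release sebum, so that genes of fatty acid desaturation, elongation and esterification are strongly expressed there. Bulk skin also holds epidermal keratinocytes, hair follicles, fibroblasts, muscle, fat and immune cells, and in such samples fewer cells of a type and less RNA per cell cannot be told apart.

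The medians of the 8 arrays lay between 27.2 and 28.5 intensity units, and no pair of arrays was identical. Pearson correlations of log2 intensity over all 28789 tested probesets were 0.970 to 0.986 between pairs of Cpd2 arrays (median 0.982), 0.985 to 0.989 between pairs of Cpd6 arrays (median 0.987) and 0.970 to 0.987 between arrays of different compounds (median 0.984). Over all 8 arrays, those of different compounds were thus about as similar as those of the same compound. All values under 0.981 involved Cpd2 replicate 4, and without it the ranges were 0.984 to 0.986 within Cpd2, 0.985 to 0.989 within Cpd6 and 0.981 to 0.987 between compounds. The medians were then 0.986, 0.987 and 0.985, so that the median between compounds lay slightly below both others. That mouse also held more hair shaft transcript than the other 7 treated mice. The mean log2 intensity of 18 hair shaft keratin and keratin-associated protein genes was 3.62, 4.72, 3.53 and 7.62 in the Cpd2 mice, 3.45, 3.53, 5.86 and 3.37 in the Cpd6 mice and 3.90, 8.51, 10.5 and 11.63 in the vehicle mice. Results that rest on Cpd2 replicate 4 are therefore given with and without it, and the spread of hair shaft transcript among the vehicle mice stands behind every value against vehicle below. The part that hair growth plays in any result was not tested.

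The first principal component of the 8 arrays, with 32.4% of the variance, set Cpd2 replicate 4 at a score of 62.5, while the other 7 arrays lay between -31.2 and 10.6. The genes with its highest loadings were hair keratins and their associated proteins (Krt25, Krt73, Krt33a, Krtap15). The second component, with 17.0%, separated the compounds in this set. Its scores were 37.6, 18.0, 17.1 and -2.59 for the Cpd2 arrays and -21.3, -19.1, -13.8 and -16.0 for the Cpd6 arrays. Among the genes with high loadings on it were Gabra4, Lin7a, Neto2, Wnt2 and Aadacl4, and among those with low loadings Sprr2h, Krt2, Lce1e, Lce1h, Slc15a2 and Defb14. Components were computed from the same values as the differences below and are a description only.

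**Figure D1:**
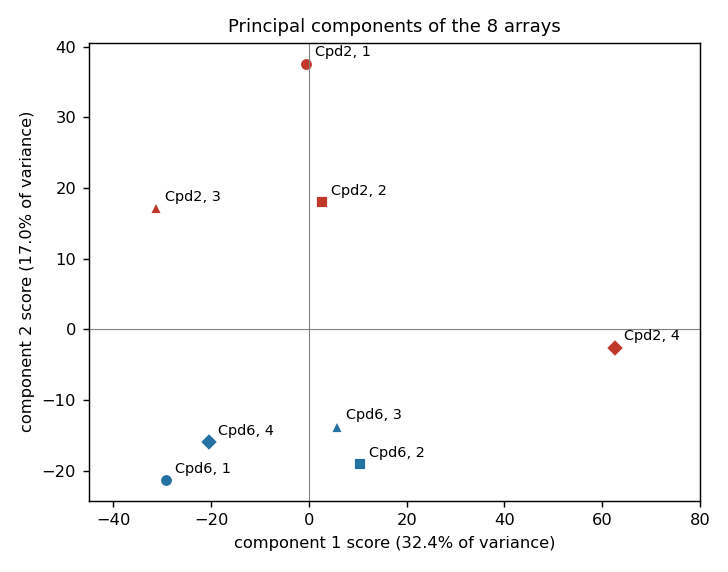
Scores of the 8 arrays on the first component (horizontal, 32.4% of variance) and the second (vertical, 17.0% of variance), with Cpd2 arrays in red and Cpd6 arrays in blue, and the replicate number beside each. Cpd2 replicate 4 stands alone at 62.5 on the first component, and the 4 Cpd6 arrays lie below all 4 Cpd2 arrays on the second.

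Taken probeset by probeset, Cpd2 and Cpd6 did not differ past the threshold. Of 28789 probesets, 0 (0%) were called by limma at an adjusted p under 0.05, and the smallest adjusted p was 0.136, for Gabra4. The methods' t-test also left 0 after Benjamini-Hochberg adjustment. At an unadjusted p under 0.05, 2474 probesets (8.59%) passed in limma, 1035 higher (3.6%) and 1439 lower (5%) with Cpd2, and this split of directions turned to 1491 higher and 1088 lower when array medians were set equal, which moved the median difference by 0.04. At the cutoffs of the methods, an unadjusted p under 0.01 and a fold over 1.2, limma's p gave 677 probesets (2.35%), 228 higher and 449 lower with Cpd2, and the methods' own test gave 481. A missed threshold does not show that the compounds act alike, so the intervals bear more weight. The median absolute difference was 0.13 on the log2 scale, its 95th percentile was 0.52 and its 99th was 0.76, and 52 probesets (0.181%) differed by over 1. The 95% interval of the difference lay wholly inside a 1.5-fold margin for 17116 probesets (59.5%) and wholly inside a 2-fold margin for 26889 (93.4%). For the remaining 1900, a 2-fold difference in one or the other direction was not excluded by the interval. In simulated data with the spread of these arrays, 13% of 1.5-fold, 62.5% of 2-fold and 93.5% of 3-fold changes were called, so 4 mice against 4 could miss many differences under 2-fold. The simulated noise was normal and independent between probesets, with 200 probesets changed and no outlying mouse. These rates are therefore only a rough guide to the real arrays.

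Leaving out Cpd2 replicate 4 changed that count. With 3 Cpd2 mice against 4 Cpd6 mice, limma called 24 probesets, 5 higher and 19 lower with Cpd2, and 17 of them name a gene. Lower with Cpd2 were 8 late cornified envelope genes of the Lce1 family (Lce1a1, Lce1a2, Lce1b, Lce1c, Lce1d, Lce1f, Lce1h and Lce1l) with Kprp, Sdr9c7, Rnf225, Tuft1 and Defb14. Higher with Cpd2 were Gabra4, Kitl, Ro60 and Syncrip. With all 48 arrays of the series in the fit, limma called 2 probesets, Gabra4 and Cbx1, both at an adjusted p of 0.0203.

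Some responses to treatment were called with both compounds. Against the 4 vehicle mice of Study 2, limma called 37 probesets with Cpd2 (0.129%) and 109 with Cpd6 (0.379%), and most were lower: 25 lower (0.0868%) and 12 higher (0.0417%) with Cpd2, and 83 lower (0.288%) and 26 higher (0.0903%) with Cpd6. Both sets of values use the same vehicle arrays, so they are given side by side and not as 2 independent observations. In all, 28 named genes were called with both compounds, 20 of them lower and 8 higher than vehicle. The shared genes described next were picked from these 28, so that their being shared follows from the choice. Of the 8 that were higher, 6 differed little between the compounds.

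Ccl1, a chemokine that attracts T cells, had log2 intensities of 8.36, 9.30, 8.91 and 8.75 with Cpd2, 8.31, 8.65, 8.89 and 8.97 with Cpd6, and 5.79, 5.51, 5.29 and 5.34 with vehicle. All 8 treated mice lay above all vehicle mice, and the treated groups overlapped almost completely. Ccl1 rose by 3.35 with Cpd2 and by 3.22 with Cpd6 on the log2 scale, and the difference between the compounds was 0.12 (95% interval -0.30 to 0.55). Defb1, an epithelial antimicrobial peptide, had 11.40, 11.65, 11.79 and 11.45 with Cpd2, 11.44, 11.65, 11.40 and 11.66 with Cpd6 and 11.18, 10.51, 10.64 and 10.76 with vehicle. Its difference between the compounds was 0.04 (-0.18 to 0.25). The chemokine Cxcl16, at 9.10, 9.21, 9.10 and 9.12 with Cpd2 and at 9.08, 9.21, 9.02 and 9.03 with Cpd6, against 8.79, 8.18, 8.28 and 8.27 with vehicle, differed by 0.05 (-0.15 to 0.24). These levels were as close between compounds as between mice of one compound. Defb6, a second beta-defensin, the costimulatory receptor Tnfrsf4 and the transcription factor Zbtb7c differed by 0.01 (-0.16 to 0.19), 0.04 (-0.20 to 0.29) and 0.09 (-0.16 to 0.34). For these 6 genes the interval excluded a difference of 1.5-fold. Gsdma2, a gasdermin, and Cyp2g1, a cytochrome P450, also rose with both, but their differences of -0.00 (-0.73 to 0.73) and 0.56 (-0.36 to 1.49) were less well bounded, and that of Cyp2g1 was 0.28 with 16 intensity units added before the log. Cyp2g1 ranged from 4.08 to 5.21 in the Cpd2 mice and from 2.99 to 5.42 in the Cpd6 mice, and lay between 2.03 and 2.37 in the vehicle mice.

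Genes lowered by both compounds were less even. Cyp2b23, a cytochrome P450, had log2 intensities of 5.14, 4.55, 5.33 and 5.19 with Cpd2, 4.45, 4.87, 4.94 and 4.81 with Cpd6, and 8.81, 9.001, 9.08 and 8.60 with vehicle. It fell by 3.82 with Cpd2 and by 4.10 with Cpd6, and the difference of 0.28 (-0.17 to 0.73) was within the spread of mice. Scd3, the stearoyl-CoA desaturase of the sebaceous gland, had 8.06, 7.67, 8.52 and 8.52 with Cpd2, 7.06, 7.94, 7.63 and 7.90 with Cpd6, and 10.07, 10.07, 10.20 and 9.66 with vehicle. Cpd2 mice tended to the upper end with overlap, and the difference was 0.57 (0.07 to 1.06, limma adjusted p = 0.505). Serpina3b, a serine protease inhibitor, showed the widest gap of the genes lowered by both, at 8.67, 9.07, 9.52 and 9.79 with Cpd2, 7.96, 8.56, 7.32 and 7.85 with Cpd6, and 11.52, 11.26, 11.52 and 11.09 with vehicle. The 3 groups did not overlap, and the difference between the compounds was 1.34 (0.76 to 1.93), a 2.54-fold higher level with Cpd2 (limma adjusted p = 0.24). Aox4, an aldehyde oxidase of skin, Aadacl4, an arylacetamide deacetylase relative, and the serpin Serpinb6d had differences of 0.90 (0.18 to 1.63), 0.88 (0.23 to 1.53) and 0.88 (0.24 to 1.51), each with overlap between the groups. Rnase2b, a ribonuclease of the eosinophil type, differed by 0.65 (0.16 to 1.13), Apof by 0.41 (-0.01 to 0.84) and Gm38910 by 0.27 (-0.04 to 0.57). On the other side of 0 were Akr1c21, an aldo-keto reductase, at -0.48 (-1.03 to 0.06), Serpinb6e at -0.24 (-1.01 to 0.52) and the hair follicle keratin Krt75 at -0.19 (-0.83 to 0.44). Krt75 was at 9.45, 9.95, 10.82 and 11.44 in the vehicle mice, in the same order as their hair shaft transcript. Its effect in other mice was -0.18 with Cpd2 in Study 1 and -2.19 with Cpd6 in Study 4. None of the 12 genes passed limma's adjusted threshold between the compounds. Dim members depended on the log offset, and with 16 units added the differences were 0.54 for Aox4, 0.30 for Serpinb6d, 0.11 for Apof, -0.16 for Akr1c21 and -0.09 for Serpinb6e.

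**Figure D2:**
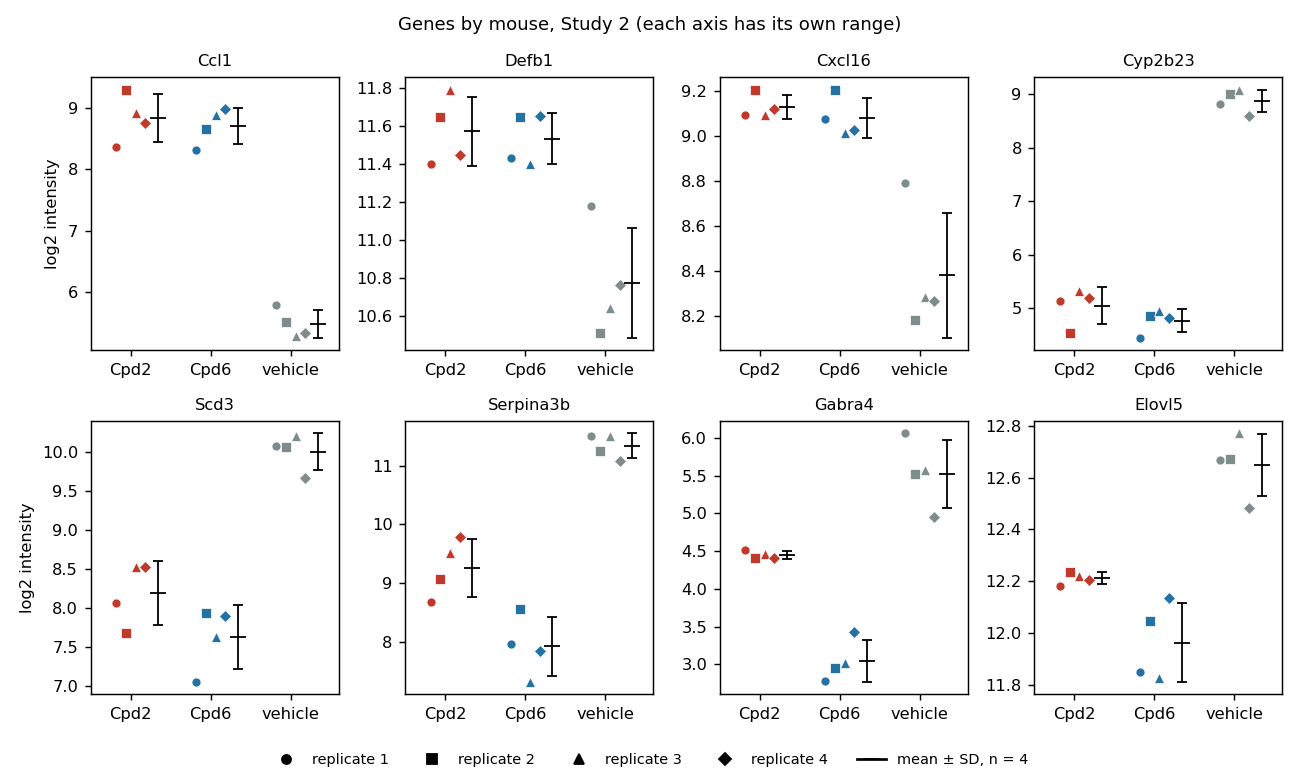
Log2 intensity (vertical, own range per panel) of 8 genes in each Study 2 mouse given Cpd2 (red), Cpd6 (blue) or vehicle (grey); marker shapes give the replicate number, and the black bar is the mean with its SD over 4 mice. Ccl1, Defb1 and Cxcl16 overlap between the compounds and lie above vehicle, while Serpina3b, Gabra4 and Elovl5 show all 4 Cpd2 mice above all 4 Cpd6 mice and below vehicle.

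The transcript of the drug target differed little between the groups. Dgat1 had log2 intensities of 10.51, 10.66, 10.73 and 10.77 with Cpd2, 10.31, 10.56, 10.70 and 10.57 with Cpd6 and 10.74, 10.89, 10.74 and 10.42 with vehicle, a difference of 0.13 between the compounds (-0.08 to 0.34). For Dgat2 the difference was 0.04 (-0.23 to 0.31). Of the lipid genes that the study names, Elovl5, an elongase of polyunsaturated fatty acids, separated the groups with 12.18, 12.24, 12.22 and 12.20 with Cpd2, 11.85, 12.05, 11.83 and 12.13 with Cpd6 and 12.67, 12.67, 12.77 and 12.48 with vehicle. Its difference was small, at 0.25 (0.09 to 0.41, limma adjusted p = 0.374). Acox2, which acts on branched-chain lipids in peroxisomes, differed by 0.39 (0.01 to 0.77), and Hsd17b2, which oxidises sex steroids, by 0.63 (0.11 to 1.16), both with overlap between the groups.

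Genes that treatment lowered in other mice of the series were, on the whole, higher with Cpd2 than with Cpd6. In the fit of all 48 arrays, 124 probesets (105 named genes) were called lower than vehicle both with Cpd2 in Study 1 and with Cpd6 in Study 4, so that the mean changes behind the choice come from mice that Study 2 did not use. In Study 2, 115 of the 124 (92.7%) had a higher mean with Cpd2 than with Cpd6, against 50.6% of all probesets, and their median difference was 0.27, against 0.00 over all probesets. At an unadjusted p under 0.05, 51 of the 124 were higher and 0 lower with Cpd2, where 3.6% of all probesets were higher and 5% lower. None was called after limma's adjustment over all probesets. All 4 Cpd2 mice lay above all 4 Cpd6 mice for 20 of the 124, and the reverse held for 0. Over all probesets these shares were 2.04% and 2.79%. The mean log2 intensity of the group was 7.79, 7.85, 7.98 and 7.98 in the Cpd2 mice, 7.42, 7.74, 7.46 and 7.70 in the Cpd6 mice and 8.64, 8.499, 8.80 and 8.56 in the vehicle mice. The 3 sets of mice did not overlap, with the Cpd2 mice nearer to vehicle. The gap between the compounds was narrow for Cpd6 replicates 2 and 4, at 7.74 and 7.70 against 7.79 in the lowest Cpd2 mouse. It was wider for Cpd6 replicates 1 and 3, at 7.42 and 7.46. The interval lay inside a 2-fold margin for 99 of the 124. Leaving out Cpd2 replicate 4 gave a median difference of 0.25, and leaving out the genes of the study's biomarker list left 85 probesets with a median of 0.26, 79 of them above 0.

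Gabra4, a subunit of the GABA-A receptor, Serpina3b and Cyp2j12, a cytochrome P450 of the arachidonic acid epoxygenase family, differed most within that group. Others of them without overlap were Pxmp4, a peroxisomal membrane protein, at 0.40 (0.16 to 0.64), Cisd1, an iron-sulfur protein of the outer mitochondrial membrane, at 0.27 (0.11 to 0.43), Procr, the protein C receptor, at 0.42 (0.15 to 0.69) and the serpin Serpinb6c at 0.46 (0.13 to 0.79). The peroxisome division factor Pex11g and the fatty acid binding protein Fabp5, with overlap, differed by 0.43 (0.16 to 0.71) and 0.39 (0.10 to 0.67). Akr1c21 at -0.48 and Serpinb6e at -0.24 were the largest of the 9 differences below 0. The 40 probesets raised by both compounds in the other mice leaned the other way by less. Of them 11 (27.5%) were higher with Cpd2 than with Cpd6, their median difference was -0.08, or -0.13 without Cpd2 replicate 4, and their mean log2 intensity was 9.42, 9.34, 9.37 and 9.51 with Cpd2, 9.41, 9.61, 9.47 and 9.53 with Cpd6 and 9.19, 9.17, 9.09 and 8.98 with vehicle. The treated groups overlapped in this mean, and the interval of all 40 lay inside the 2-fold margin.

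**Figure D3:**
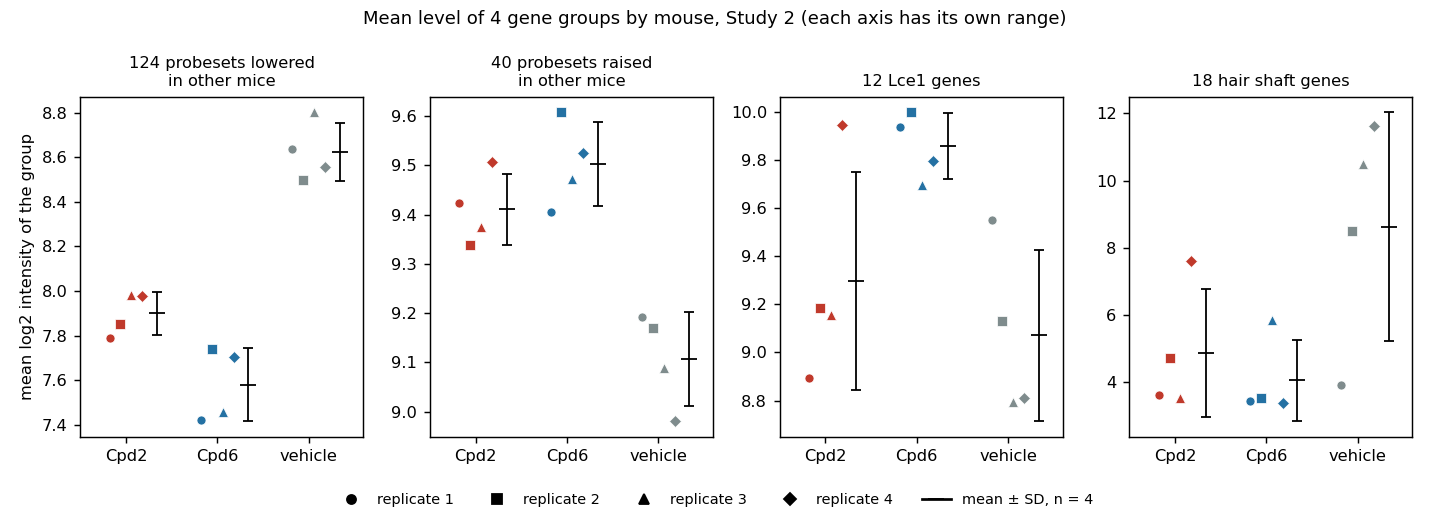
Mean log2 intensity (vertical, own range per panel) of 4 gene groups in each Study 2 mouse, by compound, with the replicate number as marker shape and the mean and SD over 4 mice in black. Cpd2 mice lie between the Cpd6 and vehicle mice for the 124 probesets lowered in other mice, and Cpd2 replicate 4 stands apart from the other 3 Cpd2 mice for the Lce1 and hair shaft genes.

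The study chose its own biomarker list on these mice among others, so the list is not independent evidence. Of its 38 measured genes, 34 were higher with Cpd2 than with Cpd6, with 15 higher and 1 lower at an unadjusted p under 0.05 (4.27% higher and 3.32% lower over all genes) and 0 called after limma's adjustment. The list holds genes of both directions. Of the 27 that Cpd2 lowered in Study 1 by sign, 25 were higher with Cpd2, 15 of them at that threshold, and the median difference was 0.39. Their median against vehicle was -1.08 with Cpd2 and -1.57 with Cpd6, with 12 and 23 genes called. Of the 11 that were raised, 9 were higher with Cpd2, 0 of them at that threshold, and 1, the chloride channel gene Ano1, was lower at -0.20. The median difference of the 11 was 0.05, and their median against vehicle was 0.71 with Cpd2 and 0.70 with Cpd6, with 7 genes called for each. Pnpla5, a lipase of lipid droplets, had 8.22, 8.08, 8.62 and 8.77 with Cpd2, 7.49, 8.37, 7.37 and 8.07 with Cpd6 and 9.90, 9.65, 10.02 and 9.53 with vehicle. The groups overlapped, with Cpd6 replicates 1 and 3 lowest, and these same mice were also lowest for Ces4a, a carboxylesterase, Cyp1a1, a target of the aryl hydrocarbon receptor, and Crat, which makes acetylcarnitine. The differences of the 3 genes were 0.68 (0.23 to 1.14), 0.66 (0.14 to 1.19) and 0.49 (0.08 to 0.89).

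By single gene, the largest leanings were taken from named probesets with an unadjusted p under 0.01 and no overlap between the 4 and 4 mice. Of these there were 300, 136 higher and 164 lower with Cpd2, and the 12 largest differences on each side are named here. Their sizes were selected for being large and none passed limma's adjustment in this fit. The smallest selected differences were 0.84 and -0.89.

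Gabra4 had the smallest p of the genes higher with Cpd2. Its log2 intensities were 4.52, 4.41, 4.46 and 4.41 with Cpd2, 2.78, 2.95, 3.02 and 3.42 with Cpd6, and 6.06, 5.52, 5.57 and 4.95 with vehicle. The 3 groups were fully apart, and the level with Cpd2 was 2.65-fold that with Cpd6, a difference of 1.40 (1.02 to 1.79). The Cpd6 level lay near the filter limit of 2.93, and with 16 intensity units added before the log the difference was 0.64, a 1.56-fold level. Cyp2j12 had 5.84, 6.15, 6.35 and 5.95 with Cpd2, 4.75, 5.46, 4.12 and 5.40 with Cpd6, and 7.34, 7.11, 7.38 and 6.78 with vehicle, a difference of 1.14 (0.54 to 1.74). Wnt2, a secreted Wnt ligand, had 4.17, 3.71, 3.38 and 3.81 with Cpd2, 3.03, 2.42, 2.51 and 2.57 with Cpd6 and 4.17, 4.02, 4.12 and 2.95 with vehicle, a difference of 1.13 (0.68 to 1.59). With Wnt2 the Cpd2 mice overlapped the vehicle mice, and of the vehicle mice only replicate 4, at 2.95, lay in the range of the Cpd6 mice. Lin7a, a scaffold protein of cell junctions, differed by 1.23 (0.43 to 2.04) and Ly6k, a GPI-anchored surface protein, by 0.85 (0.40 to 1.30). Neto2, an auxiliary subunit of kainate receptors, Lama2, a basement membrane laminin chain, Lpar4, a lysophosphatidic acid receptor, and Otx1, a homeobox factor, differed by 1.14, 1.02, 0.96 and 0.91 at the chosen probeset, but other probesets of the same genes gave 0.12 for Neto2, 0.18 and -0.36 for Lama2, 0.11 for Lpar4 and 0.29 for Otx1. The remaining ones were AU040320 at 0.84, with other probesets at 0.14 and -0.11, and 1700016C15Rik at 0.85. Apart from Serpina3b, these genes were dim, with no array of the 8 above 6.35. With 16 units added, 10 of the 12 differences shrank by over 1.5 times, Wnt2 to 0.42 and Neto2 to 0.35, and the exceptions were Serpina3b at 1.29 and Cyp2j12 at 0.82.

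Slc15a2, which takes up di- and tripeptides into cells, had the largest difference among the genes lower with Cpd2. It had 7.70, 8.51, 8.16 and 7.54 with Cpd2, 9.96, 9.35, 8.57 and 9.31 with Cpd6, and 9.60, 5.92, 9.19 and 8.97 with vehicle. The difference was -1.32 (-1.91 to -0.73), a 2.5-fold higher level with Cpd6, while another probeset of the gene gave 0.06. The vehicle mice covered the range of both compounds, with replicate 2 far below the others. Defb14, the beta-defensin of stimulated epidermis, had 5.88, 6.25, 5.76 and 6.72 with Cpd2, 7.29, 6.99, 6.98 and 6.91 with Cpd6, and 6.01, 5.59, 5.12 and 5.80 with vehicle. Its difference was -0.89 (-1.33 to -0.45), and -1.08 without Cpd2 replicate 4, where limma called it at an adjusted p of 0.0427. Defb14 was called against vehicle with Cpd6, at 1.41 (limma adjusted p = 0.011), and not with Cpd2, at 0.52 (limma adjusted p = 0.617). The other 10 genes of this side were Vps8, a subunit of an endosomal tethering complex, Lpp, a focal adhesion protein, the kinase Tnik, Gmcl1, the heterochromatin protein gene Cbx1, the selenoprotein Selenoi, Cobll1, Gm36027, 1700025G04Rik and 5730405A17Rik, with differences between -1.13 and -0.89. Where such genes had other probesets, most of those gave smaller values, such as -0.14, -0.24, -0.06 and -0.75 for Lpp against -1.05, -0.55 and 0.09 for Tnik against -1.02, and 0.05, -0.03 and 0.06 for Selenoi against -0.92. A whole-gene change is thus not shown for them. With 16 units added, 4 of the 12 shrank by over 1.5 times (Vps8, Cbx1, Selenoi and 5730405A17Rik), while Slc15a2 was at -1.27 and Defb14 at -0.76.

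**Figure D4:**
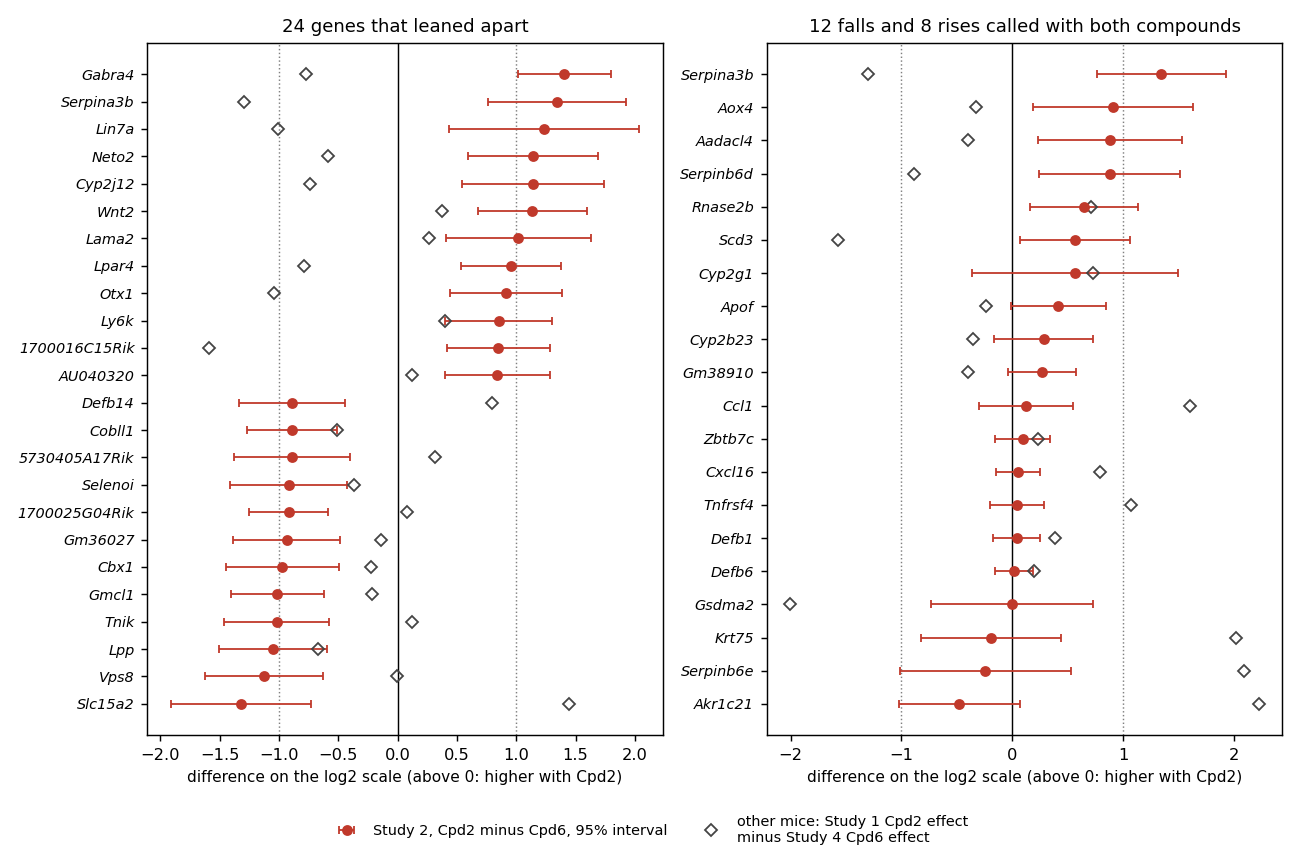
Cpd2 minus Cpd6 difference on the log2 scale (horizontal) in Study 2 with its 95% interval (red), for the 24 genes that leaned apart most (left) and for 12 falls and 8 rises of the 28 named genes called against vehicle with both compounds (right); open diamonds give the Study 1 Cpd2 effect minus the Study 4 Cpd6 effect, and dotted lines mark 2-fold. Intervals on the left exclude 0 because the genes were chosen so, and the diamonds lie on both sides of 0 in both panels.

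The leanings of Study 2 did not in general recur in the other mice. There the Cpd2 effect came from Study 1 (8 Cpd2 and 8 vehicle mice) and the Cpd6 effect from Study 4 (4 Cpd6 and 4 vehicle mice), and compound and study cannot be told apart in their difference. Limma called 2501 probesets in it (8.69%). Its median was 4.71 over 18 hair shaft genes and -2.67 over 24 skeletal muscle genes, against 0.86 and -0.01 in Study 2. The part that hair and muscle content of the biopsies plays in this contrast of other mice was not tested. Of the 24 leaning genes, 4 of the 12 that were higher with Cpd2 and 7 of the 12 that were lower had the same sign there, 0 were called with the same sign, and Otx1 at -1.04 and 1700016C15Rik at -1.59 were called with the opposite sign. Over all probesets the correlation of the differences was 0.04, a description across probesets that share arrays and are not independent. Gabra4 had an effect of -2.68 with Cpd2 in Study 1 and -1.91 with Cpd6 in Study 4, a difference of -0.77 against 1.40 in Study 2. Serpina3b had -4.26 and -2.96, a difference of -1.30 against 1.34 in Study 2, and Scd3 had -3.68 and -2.11, a difference of -1.57 against 0.57. For all 3 genes the larger fall was that of Cpd2 between Studies 1 and 4 and that of Cpd6 within Study 2. For the 124 probesets lowered in both of those studies, the difference between them was above 0 for 53 and below 0 for 71, against 53.9% above 0 over all probesets.

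Lists of genes by function showed where the leanings gathered. Over all 15320 genes, 4.27% were higher and 3.32% lower with Cpd2 at an unadjusted p under 0.05, 55.8% had a difference above 0, and the median was 0.02. Groups without overlap made up 2.4% of genes with Cpd2 above Cpd6 and 2.15% with Cpd2 below it. No list held a gene called after limma's adjustment. Of 19 sebaceous gland genes, 16 were higher with Cpd2 and 5 passed the unadjusted threshold against 1 lower, with a median of 0.15. The list's mean log2 intensity was 8.95, 9.05, 9.13 and 9.07 with Cpd2 and 8.61, 9.03, 8.80 and 9.05 with Cpd6. Vehicle mice had 9.22, 9.09, 9.12 and 8.83. The treated groups overlapped, with Cpd6 replicates 1 and 3 lowest. Against vehicle the median of this list was 0.01 with Cpd2 and -0.06 with Cpd6. Elovl3, an elongase of very long saturated fatty acids, was at 8.65, 8.78, 8.96 and 9.54 with Cpd2, 8.04, 8.64, 8.13 and 8.72 with Cpd6 and 9.29, 9.22, 9.44 and 9.03 with vehicle, a difference of 0.60 (0.15 to 1.05). Cidea, a lipid droplet protein, and Awat1, an acyl-CoA wax alcohol acyltransferase, differed by 0.53 (0.11 to 0.95) and 0.44 (0.03 to 0.85). The 1 gene lower at that threshold was Prdm1, a transcriptional repressor, at -0.51 (-0.84 to -0.18). Far2, which makes fatty alcohols for wax esters, was at -0.54 (-1.42 to 0.34). Fatty acid synthesis and elongation genes gave 4 higher and 0 lower of 26 (median 0.11, or 0.07 without Cpd2 replicate 4), and peroxisomal lipid genes gave 5 higher and 0 lower of 16 (median 0.16). Retinoid genes gave 3 higher and 0 lower of 23 (median 0.11). In cholesterol synthesis 1 gene was higher and 1 lower of 19, with a median of 0.08, or -0.06 without Cpd2 replicate 4, and Stard4, a sterol carrier, differed by -0.29 (-0.48 to -0.10) without overlap. Pdk4, a brake on glucose oxidation, differed by -0.39 (-0.57 to -0.21), also without overlap, among 17 genes of fatty acid oxidation with a median of 0.01. Against vehicle, the median of the fatty acid synthesis list was -0.19 with Cpd2 and -0.22 with Cpd6, and that of the peroxisomal list 0.08 with Cpd2 and -0.11 with Cpd6. In the contrast of other mice, most of these lists had the opposite sign. Their medians there were -0.17 for sebaceous gland, -0.27 for fatty acid synthesis, -0.19 for peroxisomal and 0.01 for retinoid genes. The study's biomarker list had a median of -0.27 there.

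Epidermal differentiation genes leaned in the opposite direction. Of 26 genes of keratinocyte differentiation and the cornified envelope, 6 were above 0, and 0 were higher and 5 lower with Cpd2 at the unadjusted threshold, with a median of -0.18. The mean log2 intensity of the list was 9.01, 9.12, 9.21 and 9.78 with Cpd2, 9.40, 9.66, 9.36 and 9.37 with Cpd6 and 9.35, 9.01, 9.34 and 9.58 with vehicle. Cpd2 replicate 4 was the highest of the 12 mice and the other 3 Cpd2 mice were below all Cpd6 mice, and without it the median was -0.25. The Lce1 genes, which encode late cornified envelope proteins and lie together in the epidermal differentiation complex, lay on one side of 0 as a family. All 12 had differences below 0, 11 at an unadjusted p under 0.05, with a median of -0.55 and -0.75 without Cpd2 replicate 4. Their mean was 8.89, 9.18, 9.16 and 9.95 with Cpd2, 9.94, 9.998, 9.69 and 9.80 with Cpd6 and 9.55, 9.13, 8.79 and 8.81 with vehicle. Lce1c, for example, was at 10.43, 10.62, 10.62 and 11.27 with Cpd2, 11.32, 11.35, 11.14 and 11.26 with Cpd6 and 10.83, 10.65, 10.08 and 10.27 with vehicle. Lce1 family members are close in sequence, so probes may read more than 1 of them and the 12 are not 12 separate observations. This family was picked out after its values were seen. Their median against vehicle was 0.22 with Cpd2 and 0.79 with Cpd6. In the contrast of other mice, where compound and study cannot be told apart, these leanings had the opposite sign. The median there was 0.99 for the Lce1 genes and 0.55 for the list of keratinocyte differentiation and the cornified envelope. The related Lce3 and Sprr genes had medians of -0.08 over 3 genes and 0.02 over 8, or -0.34 and -0.07 without Cpd2 replicate 4.

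Basal keratinocyte genes leaned slightly to Cpd6. Itga6, the integrin that anchors basal cells, had 11.21, 11.18, 11.13 and 11.17 with Cpd2, 11.54, 11.68, 11.36 and 11.41 with Cpd6 and 11.07, 11.31, 11.001 and 10.92 with vehicle, a difference of -0.33 (-0.49 to -0.16) without overlap. Trp63, the master factor of stratified epithelium, differed by -0.19 (-0.33 to -0.05), again without overlap. These were the only 2 of 12 genes past the unadjusted threshold, and the list's median was -0.10, or -0.16 without Cpd2 replicate 4. Cers3, the ceramide synthase of the epidermal barrier, was at 9.11, 9.10, 9.32 and 9.44 with Cpd2, 9.55, 9.83, 9.60 and 9.46 with Cpd6 and 8.99, 9.06, 8.78 and 9.07 with vehicle, a difference of -0.37 (-0.62 to -0.12). Il1a, an interleukin stored in keratinocytes, was at 5.58, 5.55, 6.05 and 5.69 with Cpd2, 6.28, 6.48, 6.37 and 6.77 with Cpd6 and 6.06, 5.57, 5.53 and 5.53 with vehicle. Its difference was -0.76 (-1.13 to -0.39), with all Cpd2 mice inside the range of the vehicle mice and all Cpd6 mice above it. The list of 28 ceramide and barrier lipid genes that holds Cers3 was balanced, with 13 above 0, 1 higher and 3 lower at the unadjusted threshold and a median of -0.01, or -0.05 without Cpd2 replicate 4. The list of 14 serpins was likewise mixed, with 8 above 0, 2 higher and 4 lower and a median of 0.03, or -0.03 without that mouse. Serpina3b, higher with Cpd2 by 1.34 as given above, is a serpin that this list did not hold. Among the list's members lower with Cpd2, the intracellular serpins Serpinb2, Serpinb8 and Serpinb10 differed by -0.51 (-0.81 to -0.21), -0.45 (-0.71 to -0.19) and -0.38 (-0.68 to -0.08), each without overlap. Serpinb6d and Serpinb6c, given above, were the list's 2 higher ones. For Itga6, Trp63, Cers3, Il1a and the 3 serpins lower with Cpd2, limma's adjusted p was between 0.278 and 0.462.

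Macrophage, matrix, mast cell, dendritic cell and endothelial genes leaned mildly to Cpd2. T cell, cytokine and chemokine lists showed no leaning or were mixed. Of 20 macrophage and monocyte genes, 19 were above 0, and 6 were higher and 0 lower with Cpd2 at the unadjusted threshold, with a median of 0.28, or 0.21 without Cpd2 replicate 4. The list's mean log2 intensity was 8.33, 8.78, 8.45 and 8.60 with Cpd2, 8.67, 8.06, 8.25 and 8.14 with Cpd6 and 9.10, 8.52, 8.84 and 8.13 with vehicle, so that all groups overlapped and Cpd6 replicate 1 lay among the Cpd2 mice. Trem2, a lipid receptor of macrophages, was at 6.75, 7.12, 6.55 and 6.64 with Cpd2, 6.42, 6.35, 6.04 and 6.09 with Cpd6 and 7.001, 6.50, 7.11 and 6.95 with vehicle, a difference of 0.54 (0.18 to 0.90). Chil3, a chitinase-like protein of macrophages, differed by 0.89 (0.27 to 1.505) and the complement gene C1qa by 0.41 (0.00 to 0.81). Of 22 fibroblast and matrix genes, 18 were above 0, and 5 were higher and 0 lower, with a median of 0.16, or 0.10 without Cpd2 replicate 4. In the contrast of other mice the medians of the macrophage and matrix lists were 0.84 and 0.21, of the same sign. Timp1, an inhibitor of matrix proteases, at 0.43 (0.15 to 0.72), and the collagen gene Col5a1, at 0.26 (0.03 to 0.49), did not overlap between the compounds. T cell genes showed no leaning, with 0 higher and 0 lower of 18 and a median of 0.00. Cytokine and receptor genes were mixed, with 2 higher and 3 lower of 33 and a median of -0.08, and chemokines gave 1 higher and 2 lower of 29 with a median of 0.10, or 0.06 without Cpd2 replicate 4. Ccl5, a chemokine of T cells and macrophages, was the higher one, at 0.61 (0.15 to 1.06). Of 10 mast cell genes, 8 were above 0 and 0 passed the unadjusted threshold. Their median was 0.26, or 0.33 without Cpd2 replicate 4. Of 19 dendritic and Langerhans cell genes, 15 were above 0, with 3 higher, 1 lower and a median of 0.12, or 0.09. Of 12 neutrophil genes, 8 were above 0, with 1 higher, 0 lower and a median of 0.24, or 0.05. Of 19 endothelial and lymphatic genes, 18 were above 0, with 1 higher, 0 lower and a median of 0.17, or 0.16.

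Several other lists were close between the compounds or followed single mice. Hair shaft genes had a median of 0.86 with 17 of 18 above 0, and -0.09 without Cpd2 replicate 4, so that this leaning was that of 1 mouse. Skeletal muscle, adipocyte and circadian clock lists had medians of -0.01, 0.04 and -0.06, or 0.09, 0.07 and -0.06 without Cpd2 replicate 4. Of 19 immediate early genes, 3 were above 0 and 2 were lower with Cpd2 at the unadjusted threshold, with a median of -0.11, or -0.20 without Cpd2 replicate 4. Fosb, a stimulus-induced transcription factor, was at 5.58, 5.61, 5.52 and 6.42 with Cpd2, 5.81, 6.79, 8.80 and 6.49 with Cpd6 and 5.93, 5.82, 5.80 and 6.52 with vehicle, and its difference of -1.19 (-2.28 to -0.11) came with Cpd6 replicate 3 far above all other mice. Over 38 lists (the red blood cell list had only 2 genes and is left out), medians ran from -0.18 to 0.86, and beyond the hair shaft genes the highest was 0.30.

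**Figure D5:**
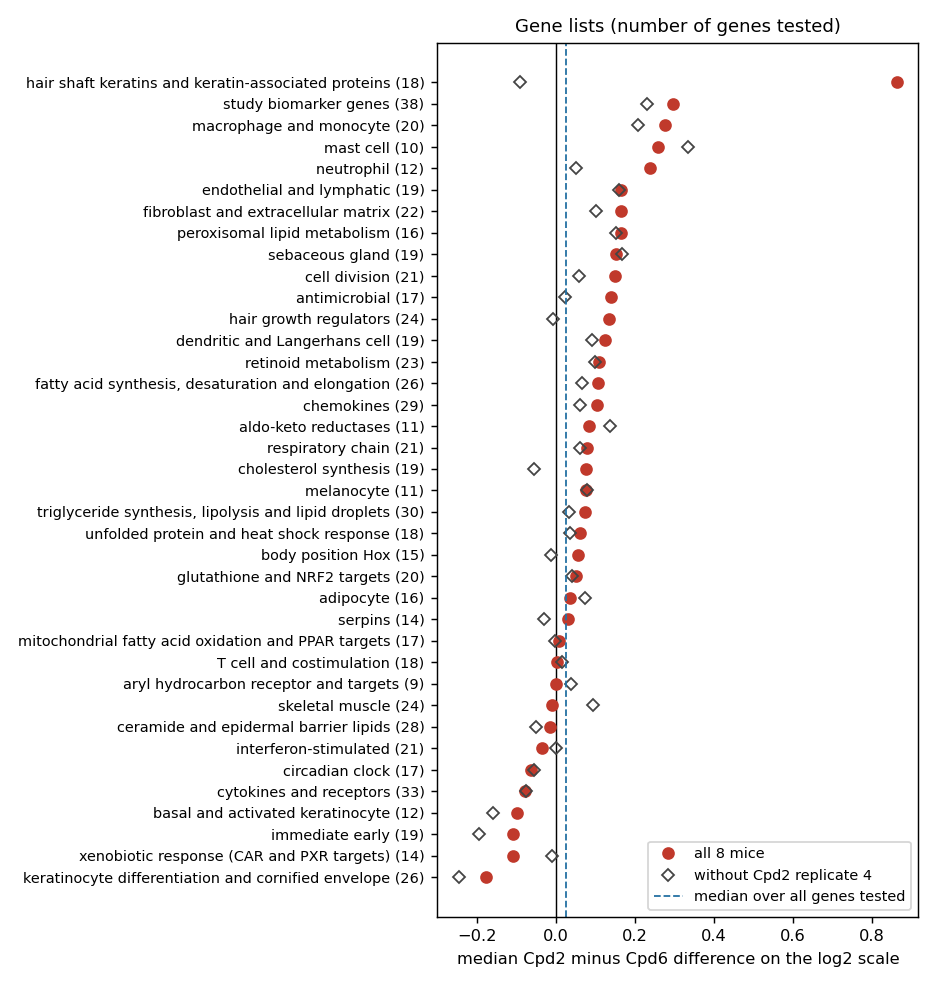
Median Cpd2 minus Cpd6 difference on the log2 scale (horizontal) for each gene list in Study 2, over all 8 mice (red) and without Cpd2 replicate 4 (open diamonds), with the number of genes tested in brackets; the dashed line is the median over all genes tested. The hair shaft list goes from the far right to below 0 without that mouse, while keratinocyte differentiation genes stay at the lower end and the biomarker, macrophage, sebaceous gland and peroxisomal lists stay above the line; the cholesterol synthesis list crosses to below it.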

How the data were processed

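The authors normalized the custom Affymetrix arrays by RMA, per the labels, and deposited linear intensity values for 38385 probesets on 48 arrays, which were taken to log2. A genome build is not given in the sources used here. Probesets were named through the platform annotation, where 24478 name 1 gene, 65 several and 13842 none. Those with a mean log2 intensity over 48 arrays at or above the 25th percentile (2.93) were kept, 28789 in all, of which 19951 name 1 gene. Cpd2 minus Cpd6 was tested on the 8 arrays with limma 3.58.1 in R 4.3.3 (lmFit, eBayes with intensity trend), with Benjamini-Hochberg adjustment over all tested probesets and 95% intervals. Comparisons with vehicle used the 12 arrays of Study 2, and the contrast between Studies 1 and 4 all 48. The methods' 1-way ANOVA of 2 groups, called the methods' t-test, other filters, scalings, an added 16 intensity units, array weights, a replicate block and leaving out each mouse were alternatives. The number of arrays limits the precision.

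Genes were named by rule: the 12 largest differences on each side at an unadjusted p under 0.01 without overlap, genes the study names with Dgat1 and Dgat2, up to 12 falls and 8 rises called with both compounds, and up to 4 members per list described. For lists, each gene was taken at its brightest probeset, and 785 of 924 listed genes were on the array. A few further members and the gene groups taken from Studies 1 and 4 and from the Lce1, Lce3 and Sprr families were chosen after their values were seen. Members and lists were chosen with earlier results of these data known. The labels do not say that arrays are separate animals, which comes from the methods; p-values measure the spread between these samples.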

Additional observations from a re-analysis of the deposited data

Results flagged for a closer look

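Between Study 2 and the other mice (Study 1 for Cpd2, Study 4 for Cpd6), the Cpd2 minus Cpd6 difference itself differed for 11 of 48 named probesets in limma's contrast of all 48 arrays, with adjusted p-values from 0.00184 to 0.0476. The Study 2 difference was above the other one by 2.17 for Gabra4, 2.64 for Serpina3b, 2.25 for Lin7a, 1.88 for Cyp2j12, 1.96 for Otx1 and 2.44 for 1700016C15Rik. The difference of the differences was -1.69 for Defb14, -1.48 for Ccl1, -2.70 for Akr1c21, -2.33 for Serpinb6e and -1.02 for Tnfrsf4. This contrast was added after the data were seen, and the first 7 genes named here were selected for a large Study 2 difference. Compound and study cannot be told apart in the other mice.

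In 10 of 124 groups of 4 mice (8.06%), 1 mouse lay far from the other 3, where chance gives about 1 in 20 for independent groups. These groups are the same mice read over many genes and lists, and many of the genes were chosen on their values. The 2 rates therefore cannot be weighed against each other. Among genes, low mice were Cpd6 replicate 2 for Lin7a (log2 intensity 2.79), Cpd6 replicate 4 for Lama2 (2.93) and Cpd2 replicate 4 for Rnase2b (9.80). High mice were Cpd2 replicate 2 for Vps8 (4.13), Cpd2 replicate 3 for 1700025G04Rik (6.74), Cpd6 replicate 2 for Apof (2.71) and Cpd2 replicate 4 for the hair follicle keratin Krt75 (8.96). Among list means, Cpd6 replicate 2 was high for keratinocyte differentiation (9.66), Cpd2 replicate 1 low for serpins (8.07) and Cpd6 replicate 3 high for hair shaft genes (5.86).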

How the results depend on the processing

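The count of probesets called by limma was 0 under the alternatives on the filter, scaling, log offset, weights, trend, replicate block, 12 arrays and the methods' t-test. It was 2 with all 48 arrays and 0 to 24 when each mouse was left out, with 24 without Cpd2 replicate 4. At the methods' cutoffs limma's p gave 677 probesets as reported, the methods' own test gave 481, and limma gave 1054 with array weights, 411 with the replicate block and 408 to 1024 when each mouse was left out. Same-numbered mice did not deviate together (correlations -0.02, -0.14, -0.24 and -0.23), so the numbers were not taken as pairs, and no mouse was closest to its own number. Of 48 named probesets under 19 settings, 8 changed sign in any, all with a main difference within 0.25 of 0. Gsdma2 turned to 0.035 with array medians set equal and to 0.013 with array weights. Leaving out each mouse in turn gave ranges of -0.27 to 0.24 for Gsdma2, -0.034 to 0.28 for Ccl1, -0.035 to 0.097 for Defb1, -0.034 to 0.13 for Dgat2, -0.036 to 0.079 for Defb6, -0.0035 to 0.082 for Tnfrsf4, -0.54 to 0.065 for Serpinb6e and -0.46 to 0.028 for Krt75. With 16 units added before the log, 14 of the 24 largest differences shrank by over 1.5 times. Gabra4 and Cbx1 were called with 48 arrays, and Gabra4 and Defb14 without Cpd2 replicate 4. Single-mouse spread was the limit: 4 mice a group left a median interval half-width of 0.39 on the log2 scale, and dim probesets have the least signal over background.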
